A study of Mus musculus with 10 samples.

Results

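The genes described here are 38 mouse genes that carry cells from G1 into S phase and copy their DNA, followed in whole melanoma tumors by bulk RNA sequencing. They were listed by gene name, with earlier results of these data known, and each of the 38 matched 1 row among the 45706 gene identifiers of the count table through GENCODE M21 on GRCm38. Of these, 37 had enough counts to be tested. RNA came from 10 tumors grown from a melanoma line that was derived from a C57BL/6 mouse with mutant Braf, Tyr::CreERT2 and loss of p16 INK4a, taken on day 4 after implantation into C57BL/6 hosts 8 weeks old. The tumor cells were COX-competent (Ptgs+/+, 4 tumors) or had lost Ptgs1 and Ptgs2, the genes for COX-1 and COX-2, through CRISPR/Cas9 editing (Ptgs-/-, 3 tumors), and both of these groups grew in untreated hosts. A further group of 3 Ptgs-/- tumors grew in hosts depleted of NK cells, for which the labels give 200 µg of anti-NK1.1 (clone PK136) and 30 µg of anti-asialo GM1 per mouse. No source used here says whether Ptgs-/- cells were 1 clone or whether each tumor came from its own mouse, so p-values measure the spread between these tumors only. Libraries were made from the 3′ ends of transcripts (QuantSeq). The count of a gene therefore does not scale with its length, and levels are compared between tumors, not between genes. Levels are given as CPM, the count of a gene scaled to a common library total.

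DNA replication starts in G1, when the origin recognition complex, CDC6 and CDT1 load the ring-shaped MCM2-7 helicase onto origins. At the start of S phase, CDC45 and the GINS complex join the helicase, primase and polymerases begin synthesis, and PCNA, the sliding clamp loaded by the RFC complex, holds the polymerases on DNA. Ribonucleotide reductase, thymidylate synthase and thymidine kinase supply the building blocks. Many of these genes are transcribed by E2F factors, which are held back by the retinoblastoma protein until cyclin D and cyclin E kinases release them. High levels of the set in a tissue are commonly read as a sign of cycling cells.

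Because members share this regulation, their promoters were searched for the E2F-like words TTTGGCGC, TTTCGCGC, TTTCCCGC and TTTGCCGC on both strands, in RefSeq windows of 300 bases (GRCm38.p6) that run from 250 bases before the annotated start. Windows were present for 32 of the 38 members, and 12 of the 32 (37.5%) held a word. A gene with more than 1 window counted as holding a word if any of its windows did, for these and the other words below. Mcm7, Lig1 and Uhrf1 had more than 1 window and held E2F-like words in 1 of them. Over all 27025 genes of the table the share was 2.6%, and over the 10617 tested genes with a window it was 4.53%. Mcm5 and Mcm6, of the helicase, are printed because they held overlapping words, and Tyms, thymidylate synthase, because it fell among the most without holding any. The lines give the 250 bases before the start in the direction of the gene, at chr8:75109259-75109508 (+ strand), chr1:128359706-128359955 (- strand) and chr5:30073626-30073875 (- strand), and capitals mark the E2F-like words on either strand.
Mcm5: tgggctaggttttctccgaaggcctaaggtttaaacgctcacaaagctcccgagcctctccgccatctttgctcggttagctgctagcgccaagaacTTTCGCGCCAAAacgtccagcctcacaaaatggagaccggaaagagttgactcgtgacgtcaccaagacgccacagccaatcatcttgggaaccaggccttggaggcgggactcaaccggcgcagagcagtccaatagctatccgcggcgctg
Mcm6: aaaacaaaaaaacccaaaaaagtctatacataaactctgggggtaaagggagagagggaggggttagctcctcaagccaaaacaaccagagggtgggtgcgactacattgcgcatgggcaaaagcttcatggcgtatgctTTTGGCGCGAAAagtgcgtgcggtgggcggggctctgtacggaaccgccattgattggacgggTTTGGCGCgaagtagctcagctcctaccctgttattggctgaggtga
Tyms: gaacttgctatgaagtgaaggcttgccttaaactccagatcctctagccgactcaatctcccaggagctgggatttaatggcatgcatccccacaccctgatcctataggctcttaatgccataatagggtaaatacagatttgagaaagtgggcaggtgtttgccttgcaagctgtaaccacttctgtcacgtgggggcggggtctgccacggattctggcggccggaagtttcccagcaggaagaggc
In Mcm5 the capitals are TTTCGCGC from 153 bases before the start and, overlapping it, TTTGGCGC read on the other strand. In Mcm6 the first stretch is TTTGGCGC from 110 bases before the start, overlapped by TTTCGCGC of the other strand, and a further TTTGGCGC begins 47 bases before the start. CCAAT on either strand stood in 19 of the 32 windows (59.4%), against 42.3% of tested genes with a window and 41.1% of all genes in the table. TTTGAA or TTCGAA, the letters of the cell cycle homology region typical of G2/M promoters, stood in 5 of 32 (15.6%), against 16.6% of tested genes with a window, 21.7% of all genes and 15 of 19 (78.9%) G2/M genes with a window. E2F-like words, by contrast, stood in 1 of those 19 (5.26%). These are matches of letters in a fixed window, with no measure of binding. Of the 12 members that held an E2F-like word, 10 fell in Ptgs-/- against Ptgs+/+ tumors as described below (median log2 fold change -0.61). Of the 19 tested members with a window but no word, 9 fell (median -0.59). This difference in counts was not tested.

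The 10 libraries held 8150556 to 12839174 counts, and 3 counts, the limit that a count of 0 allows, correspond to 0.234 to 0.368 CPM, covering counting error only. Both targeted genes were lower in Ptgs-/- libraries. Ptgs2 stood at 94.4 to 347 CPM in Ptgs+/+ tumors, 27.0 to 74.8 in Ptgs-/- tumors and 40.2 to 49.3 in those of NK cell-depleted hosts, and Ptgs1 at 128 to 170, 77.0 to 105 and 95.3 to 97.8. Ncr1, an NK cell receptor, had 0 counts in all 3 libraries of depleted hosts and 7 to 77 in the others. Ptgs+/+ replicate 3 stood apart with the lowest Ptgs2 of its group, at 94.4 CPM against 283 to 347. The count of members lower in Ptgs-/- tumors of untreated hosts and the correlation between members are given with and without it below. Of 12 melanocytic genes, the pigment genes Tyr, Tyrp1, Dct, Pmel and Mlana were at or near 0, with group means of 0 to 0.588 CPM. Among the others, group means were 21.7 to 28.9 CPM for Mitf, the master regulator of the lineage, 1.81 to 2.66 for Sox10, 45.8 to 57.4 for Ednrb, 34.6 to 70.3 for Mcam, 13.3 to 24.7 for S100b and 10.4 to 22 for Gpnmb, several of which other cells express too.

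The first comparison asked how tumors of COX-deficient cells differ from those of COX-competent cells in untreated hosts. G1/S and replication genes were lower in Ptgs-/- tumors: 21 of the 37 tested fell and none rose (FDR at or under 0.05 by the quasi-likelihood test of edgeR, adjusted over 14550 genes after Benjamini and Hochberg). That is 56.8% of the members, against 11% of all tested genes called lower and 12.1% called higher. Fitted values were lower for 36 of 37, with a median log2 fold change of -0.60 and a range of -1.10 to 0.15, while the median of all genes was -0.01. In 23 members (62.2%) every Ptgs-/- tumor lay below every Ptgs+/+ tumor, which held for 12.5% of all genes. The changes were moderate: no member passed the stricter rule of the study, which adds a log2 fold change of at least 1.5 and which 4.15% of all genes passed. RNA of whole tumors cannot tell fewer cycling cells apart from less of each transcript per cell. Leaving out each library in turn gave 14 to 27 called members, 14 without Ptgs-/- replicate 2 or 3 and 27 without Ptgs+/+ replicate 3. The 11 members called in each of these fits were Mcm3, Mcm5, Rfc5, Prim1, Pole, Lig1, Rrm1, Rrm2, Tyms, Tk1 and Ccne2. The code in the labels divides the libraries into EB046 and EB042, and within EB046 alone 15 members were called lower. EB042 holds 1 tumor of each genotype and gives no test. Shares over all genes are not given for the fits without 1 library or within EB046. A change in these counts can therefore not be told from a change over all genes.

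**Figure D1:**
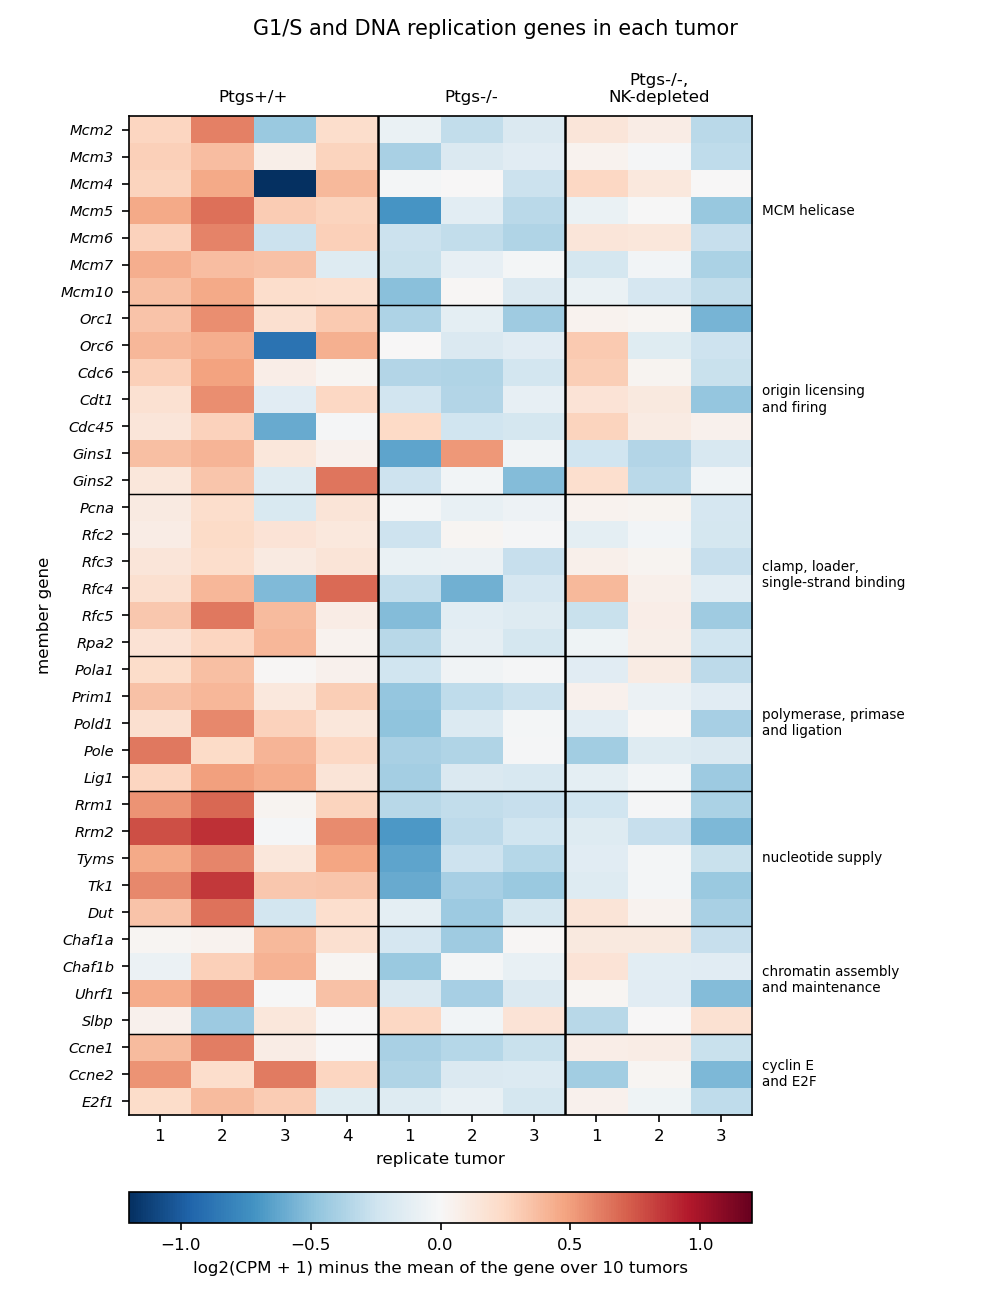
Levels of the 37 tested members (rows, by role) in each of the 10 tumors (columns, by group and replicate), as log2(CPM + 1) minus the mean of the gene over the 10 tumors, red above and blue below that mean. Most rows are red in Ptgs+/+ tumors and blue in Ptgs-/- tumors, Slbp does not follow this, and Mcm4 and Orc6 are far below the other Ptgs+/+ tumors in Ptgs+/+ replicate 3.

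Genes of nucleotide supply held the 3 largest falls among called members, and 4 of the 5 in this role fell. Tk1 (ENSMUSG00000025574, chromosome 11, 117815526 to 117826092, GRCm38), the cytosolic thymidine kinase that salvages thymidine, was at 62.9, 76.3, 52.8 and 53.0 CPM in the 4 Ptgs+/+ tumors, at 27.2, 31.7 and 30.5 in Ptgs-/- tumors and at 37.45, 41.1 and 30.5 in Ptgs-/- tumors with NK cell depletion. No Ptgs-/- tumor of either kind reached the lowest Ptgs+/+ tumor. The log2 fold change of Ptgs-/- over Ptgs+/+ was -1.10 ± 0.16 (SE, adjusted p = 0.000883), a 2.14-fold difference. Rrm2 (ENSMUSG00000020649, chromosome 12, 24708241 to 24714146), the S phase-regulated small subunit of ribonucleotide reductase, was at 64.5, 69.4, 37.1 and 56.1 CPM in Ptgs+/+ tumors, at 22.8, 29.9 and 31.6 in Ptgs-/- tumors and at 33.6, 30.8 and 25.4 with NK cell depletion. Its lowest Ptgs+/+ value, in replicate 3, still lay above all 6 Ptgs-/- tumors, and the log2 fold change was -1.07 ± 0.21 (SE, adjusted p = 0.00398). Tyms (ENSMUSG00000025747, chromosome 5, 30058202 to 30073617), which makes thymidylate, was at 43.15, 47.2, 34.4 and 43.7 CPM in Ptgs+/+ tumors, at 19.75, 26.2 and 24.35 in Ptgs-/- tumors and at 28.25, 30.6 and 25.7 with depletion. All 6 Ptgs-/- tumors lay below the Ptgs+/+ tumors, the Ptgs-/- tumors with and without depletion overlapped, and the log2 fold change of Ptgs-/- over Ptgs+/+ was -0.90 ± 0.14 (SE, adjusted p = 0.00131). Rrm1, the large subunit of the reductase, fell by 0.78 on the log2 scale. Dut, the dUTPase that keeps uracil out of DNA, had a log2 fold change of -0.59 and missed the threshold (adjusted p = 0.052). Averaged over the 5 genes, log2(CPM + 1) stood at 6.13 ± 0.29 (SD, n = 4) for Ptgs+/+, 5.34 ± 0.09 (SD, n = 3) for Ptgs-/- and 5.52 ± 0.19 (SD, n = 3) with depletion.

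Of the 7 MCM helicase genes, 5 fell. Mcm5 (ENSMUSG00000005410, chromosome 8, 75109569 to 75128439), a subunit of the replicative ring whose promoter is printed above, was at 103.0, 118.8, 93.1 and 90.7 CPM in Ptgs+/+ tumors, at 45.6, 68.8 and 59.9 in Ptgs-/- tumors and at 70.7, 74.8 and 54.5 with depletion. Every Ptgs+/+ tumor lay above every Ptgs-/- tumor, and the log2 fold change was -0.86 ± 0.17 (SE, adjusted p = 0.00398). Mcm3, Mcm6 and Mcm7, also subunits of the ring, had log2 fold changes of -0.54, -0.63 and -0.46, and Mcm10, a factor that helps to activate the ring, had -0.60. Mcm7 was the least secure of these (adjusted p = 0.049), and its call was kept in 1 of the 10 fits that left out a library. The remaining subunits did not pass: Mcm2 had a log2 fold change of -0.45 (adjusted p = 0.151) and Mcm4 of -0.26 (adjusted p = 0.588).

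Of the 7 origin licensing and firing genes, 2 fell. They were Orc1, the large subunit of the origin recognition complex (log2 fold change -0.81), and Cdc6, which loads the helicase with it. Cdc6 (ENSMUSG00000017499, chromosome 11, 98907801 to 98923940) was at 25.8, 29.6, 22.2 and 21.2 CPM in Ptgs+/+ tumors, at 16.2, 16.1 and 17.9 in Ptgs-/- tumors and at 25.9, 21.5 and 17.2 with depletion. The Ptgs-/- tumors of untreated hosts lay below all Ptgs+/+ tumors, whereas those of depleted hosts overlapped with them, and the log2 fold change between Ptgs-/- and Ptgs+/+ was -0.62 ± 0.17 (SE, adjusted p = 0.0218). This call was kept in 5 of 10 fits without 1 library. Cdt1, the licensing factor destroyed in S phase, had a log2 fold change of -0.52 (adjusted p = 0.065), and Gins2 of -0.77 on 17 to 45 counts a library (adjusted p = 0.0982). Orc6, Gins1 and Cdc45 had values of -0.35, -0.32 and -0.10 and did not pass either.

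Among polymerase, primase and ligation genes 4 of 5 tested fell. Pole (ENSMUSG00000007080, chromosome 5, 110286306 to 110337474), the catalytic subunit of the leading strand polymerase, was at 13.9, 10.3, 11.8 and 10.5 CPM in Ptgs+/+ tumors, at 6.38, 6.52 and 8.57 in Ptgs-/- tumors and at 6.21, 7.66 and 7.55 with depletion. The 6 Ptgs-/- tumors all lay below the Ptgs+/+ tumors, and the log2 fold change in untreated hosts was -0.76 ± 0.18 (SE, adjusted p = 0.0101). Prim1 (ENSMUSG00000025395, chromosome 10, 128015168 to 128030037), the catalytic subunit of primase, was at 17.4, 17.9, 14.75 and 16.6 CPM in Ptgs+/+ tumors, at 9.45, 10.7 and 11.03 in Ptgs-/- tumors and at 13.9, 12.7 and 12.1 with depletion. The 3 groups did not overlap with each other, with the depleted hosts in between, and the log2 fold change of Ptgs-/- over Ptgs+/+ was -0.74 ± 0.13 (SE, adjusted p = 0.0028). Lig1, which joins Okazaki fragments, and Pold1, of the lagging strand polymerase, had log2 fold changes of -0.66 and -0.60. Pola1, of the polymerase that extends the primer, had -0.33 (adjusted p = 0.111).

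Fen1 (ENSMUSG00000024742, chromosome 19, 10199132 to 10204169), the flap endonuclease that trims Okazaki fragments, was listed at 0 counts in all 10 libraries and could not be tested. Genes on its opposite strand, Gm10143 and Tmem258, have exons over 81% of its last 300 exonic bases in GENCODE M21, where 3′ libraries collect their reads. Tmem258 had 153 to 188 CPM and Gm10143 at most 0.439. Including Fen1, opposite-strand exons covered at least 50% of these bases in 5 members, and in 4 of them the mean level was under 4 CPM (Fen1 0, Rfc4 1.82, Gins2 2.76 and Chaf1a 3.03). Rfc5 was the exception, at 85.2 CPM with full cover. None of the other 33 members had a mean under 4 CPM. Whether counting used strand is not given in the sources used here, and the part of the overlap in these low counts was not tested.

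Of the genes of the clamp, its loader and the single-strand binding complex, 3 of 6 fell: Rfc5 (log2 fold change -0.69), Rpa2, of the complex that coats single-stranded DNA (-0.50), and Rfc3 (-0.36). The call of Rfc3, another loader subunit, was kept in 2 of the 10 fits that left out a library. Pcna, the clamp itself and the usual marker of S phase, had a log2 fold change of -0.20 with a 95% interval of -0.46 to 0.06 (adjusted p = 0.25). Rfc2, of the loader, had -0.29 (adjusted p = 0.0611). Rfc4 had the third most negative value of the set, -1.0, but on 8 to 32 counts a library and with an adjusted p = 0.118.

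Both cyclin E genes, whose kinase drives entry into S phase, fell. Ccne2 (ENSMUSG00000028212, chromosome 4, 11191351 to 11204779) was at 20.8, 16.4, 22.1 and 16.95 CPM in Ptgs+/+ tumors, at 10.7, 12.3 and 12.4 in Ptgs-/- tumors and at 10.3, 14.2 and 9.34 with depletion. All 6 Ptgs-/- tumors lay below the Ptgs+/+ tumors, with a log2 fold change of -0.75 ± 0.18 (SE, adjusted p = 0.0119) in untreated hosts. Ccne1 (ENSMUSG00000002068, chromosome 7, 38097984 to 38107534) was at 24.1, 28.6, 19.6 and 18.4 CPM in Ptgs+/+ tumors, at 13.7, 14.3 and 15.05 in Ptgs-/- tumors and at 19.5, 19.6 and 15.0 with depletion. In untreated hosts its groups did not overlap and the log2 fold change was -0.72 ± 0.18 (SE, adjusted p = 0.0141), whereas the depleted hosts overlapped with Ptgs+/+. E2f1, the founding E2F factor, had a log2 fold change of -0.42 and missed the threshold (adjusted p = 0.0555).

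Of the 4 genes of chromatin assembly and maintenance, Uhrf1, which guides methylation of new DNA, fell (log2 fold change -0.69, adjusted p = 0.0149). Chaf1a and Chaf1b, subunits of the assembly factor CAF-1, had values of -0.54 and -0.46 and did not pass. Slbp, which binds histone mRNA, was the single member with a fitted value above 0, at 0.15 (95% interval -0.34 to 0.63, adjusted p = 0.676). Its levels of 4.91, 3.20, 5.27 and 4.71 CPM in Ptgs+/+ tumors and 5.77, 4.55 and 5.38 in Ptgs-/- tumors overlapped.

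**Figure D2:**
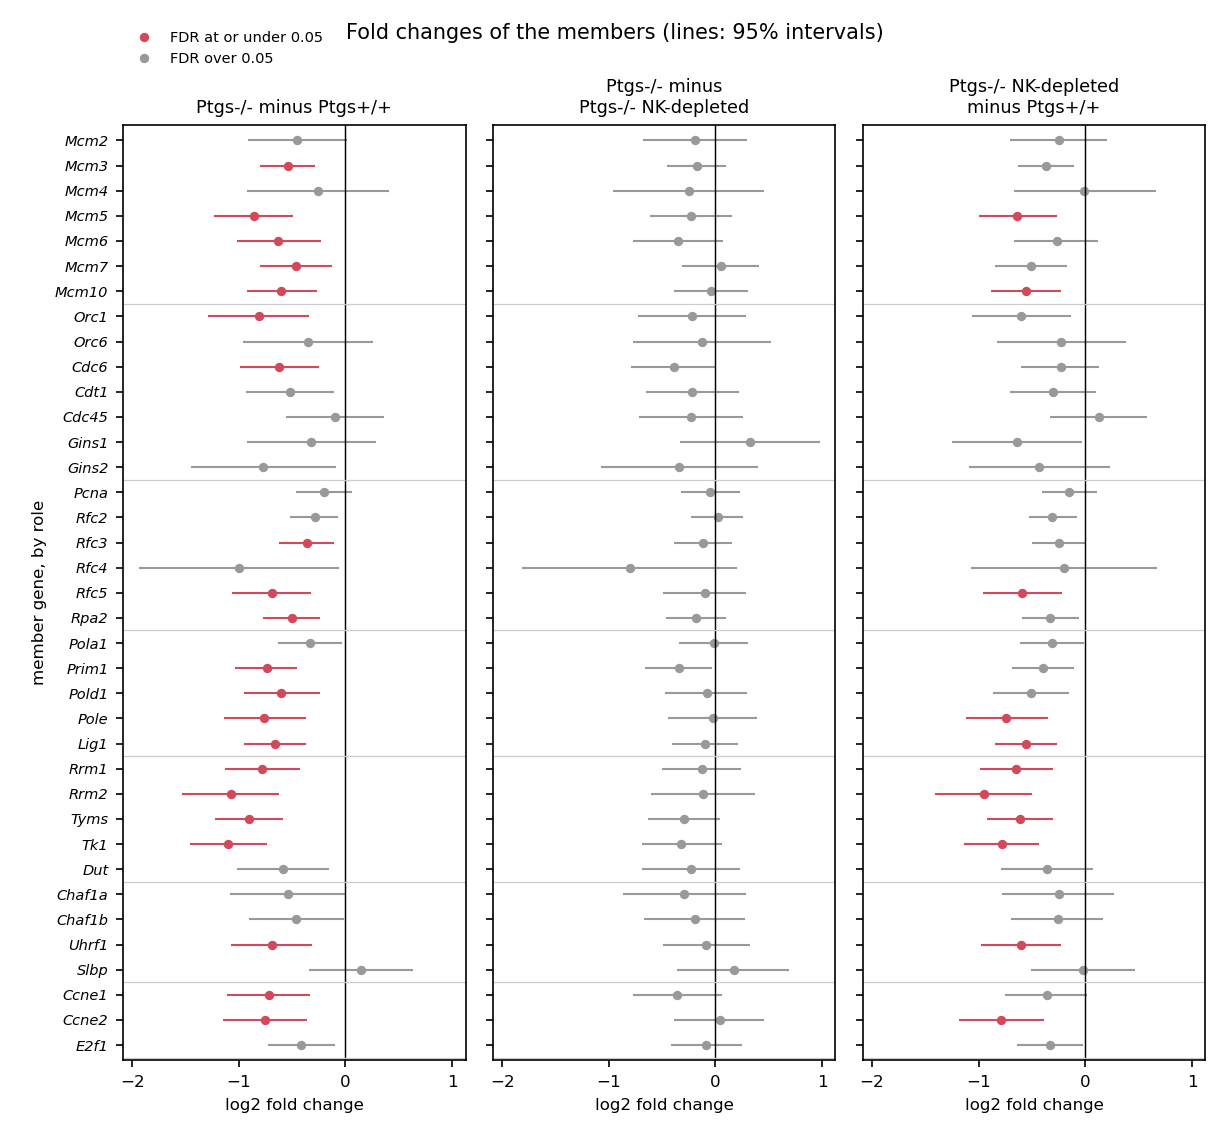
Log2 fold changes from edgeR (x axis) of the 37 tested members (y axis, by role) in the 3 comparisons, with 95% intervals as lines and members with an FDR at or under 0.05 in red. There are 21 red points in the first panel, 0 in the second and 11 in the third, all left of 0.

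Markers of several cell types also differed between Ptgs+/+ and Ptgs-/- tumors of untreated hosts, while the sums of others overlapped. The summed level of 12 NK cell genes was 18 to 43.6 CPM in Ptgs+/+ tumors and 108 to 220 in Ptgs-/- tumors, with 11 of 11 tested genes called higher. That of 11 T cell genes was 5.62 to 9.10 and 19.5 to 55.8 (9 of 10 tested called higher). Macrophage genes summed to 3260 to 4080 and 5570 to 8130 CPM (9 of 12 called higher), and fibroblast genes to 7840 to 10800 and 13900 to 17100 (4 of 10 higher). Neutrophil genes summed to 489 to 735 CPM in Ptgs+/+ tumors and 127 to 171 in Ptgs-/- tumors (7 of 10 lower), and endothelial genes to 479 to 556 and 179 to 423 (4 of 8 lower). Skeletal muscle genes summed to 36.1 to 225 and 155 to 523 CPM (6 of 15 tested called higher). Keratinocyte genes summed to 33.6 to 76 and 29.9 to 45.2 (1 of 6 lower), and melanocytic genes to 119 to 243 and 170 to 183 (1 of 7 higher). Every marker gene listed had a count in some library. The part of these shifts in cell content in the lower replication genes was not tested.

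The second comparison asked whether Ptgs-/- tumors changed when the host lacked NK cells. No member was called with edgeR, none by DESeq2, and 1 member, Prim1, had an unadjusted p under 0.05, as did 11.2% of all genes. Over all genes 0.921% were called lower and 0.515% higher in Ptgs-/- tumors of untreated hosts than in those of depleted hosts, and 1.15% passed the stricter rule of the study, which no member did. Fitted values were on the lower side in untreated hosts for 32 of 37 members, with a median of -0.17 and a range of -0.80 to 0.32, against 52% of all genes and a median of -0.01. The median was -0.11 without replicate 1 or without replicate 2 of the depleted hosts, and -0.24 without replicate 3. In 3 members (8.11%) every tumor of untreated hosts lay below every tumor of depleted hosts, near the 7.16% of all genes. The 4 members with the smallest p were Prim1 (log2 fold change -0.34, 95% interval -0.66 to -0.03, adjusted p = 0.401), Cdc6 (-0.39, -0.79 to 0.01, adjusted p = 0.457), Tyms (-0.29, -0.63 to 0.04, adjusted p = 0.523) and Ccne1 (-0.36, -0.77 to 0.06, adjusted p = 0.538). Their levels in each tumor are given above. Of the 21 members that fell in Ptgs-/- against Ptgs+/+ tumors, 4 (Mcm6, Cdc6, Rfc3 and Ccne1) had a 95% interval here that reached a difference as large as that fall. For the other 17 the interval stopped short of it, as for Tk1 (-0.32, -0.69 to 0.06), Rrm2 (-0.12, -0.60 to 0.37), Pole (-0.02, -0.44 to 0.39) and Ccne2 (0.04, -0.39 to 0.46). Both comparisons share the Ptgs-/- tumors of untreated hosts, and smaller differences lie within most of these intervals. Each fall was taken at its fitted value, without its own error, in members chosen because that fall was called. The count of 17 is therefore no test of whether the 2 differences are unequal. Muscle genes summed to 2900 to 7080 CPM in depleted hosts against 155 to 523 (12 of 15 tested genes called higher in depleted hosts), NK cell genes to 8.67 to 9.63 against 108 to 220 (11 of 11 called lower), and T cell genes to 14.9 to 22.8 against 19.5 to 55.8. Neutrophil genes stood at 189 to 241 CPM in depleted hosts against 127 to 171 (2 of 10 tested called higher in depleted hosts). Macrophage genes stood at 5260 to 5420 CPM against 5570 to 8130, and fibroblast genes at 11100 to 14000 against 13900 to 17100. Endothelial genes stood at 301 to 458 against 179 to 423, keratinocyte genes at 46.0 to 54.4 against 29.9 to 45.2, and melanocytic genes at 162 to 258 against 170 to 183. No gene of these 5 lists or of the T cell list was called. The part of these cell types in the values of the members was not tested. With muscle genes and those over 1% of a library left out, the count of called members was again 0.

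The third comparison set Ptgs-/- tumors of NK cell-depleted hosts against Ptgs+/+ tumors of untreated hosts. Depletion and COX loss differ together here and cannot be told apart, and the comparison shares its tumors with the other two. Of 37 members 11 fell (29.7%) and none rose, against 5.87% of all genes called lower and 6.63% higher. They were Mcm5, Mcm10, Rfc5, Pole, Lig1, Rrm1, Rrm2, Tyms, Tk1, Uhrf1 and Ccne2. The median log2 fold change was -0.36, with a range of -0.95 to 0.13, and again no member passed the stricter rule, which 2.71% of all genes did. In 17 members (45.9%) every tumor of depleted hosts lay below every Ptgs+/+ tumor, against 12% of all genes. The largest falls were Rrm2 (-0.95 ± 0.21, SE, adjusted p = 0.0117), Ccne2 (-0.79 ± 0.18, adjusted p = 0.0151), Tk1 (-0.78 ± 0.16, adjusted p = 0.00852) and Pole (-0.74 ± 0.18, adjusted p = 0.0183). Nucleotide supply kept 4 of 5 genes called lower, whereas none of the 7 origin licensing and firing genes was called. The count changed when single tumors were left out. Shares over all genes are not given for these reduced fits, so a change particular to the members cannot be told from a change over all genes. Without Ptgs-/- replicate 3 of the depleted hosts 0 of 37 were called, with adjusted p-values of the 11 between 0.0518 for Tk1 and 0.178 for Uhrf1. All 11 were still fitted lower, with log2 fold changes of -0.83 for Rrm2, -0.76 for Pole, -0.66 for Tk1 and -0.65 for Ccne2. Without replicate 1 of that group 4 were called, without Ptgs+/+ replicate 1 there were 5, and without Ptgs+/+ replicate 2 there were 6. Within EB046, which leaves out Ptgs+/+ replicate 4, 9 members were called lower. Skeletal muscle genes were called higher in depleted hosts for 15 of 15 tested (summed level 2900 to 7080 CPM against 36.1 to 225 in Ptgs+/+ tumors), neutrophil genes lower for 6 of 10 and higher for 1 (189 to 241 against 489 to 735), NK cell genes lower for 5 of 11 (8.67 to 9.63 against 18 to 43.6) and T cell genes higher for 4 of 10 (14.9 to 22.8 against 5.62 to 9.10). Of macrophage genes 3 of 12 were called higher and 1 lower, of fibroblast genes 2 of 10 higher, of melanocytic genes 1 of 7 higher, and of endothelial and keratinocyte genes none. With muscle genes and those over 1% of a library left out, 11 members were again called, and the part of the other cell types was not tested.

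In each tumor the set was also summarised by its score, the mean of log2(CPM + 1) over the 38 members. In Ptgs+/+ tumors the score was 5.09 ± 0.16 (SD, n = 4), with single tumors from 4.89 to 5.27. For Ptgs-/- it was 4.63 ± 0.07 (SD, n = 3), from 4.56 to 4.67, and 4.75 ± 0.15 (SD, n = 3) with NK cell depletion, from 4.57 to 4.84. All 6 Ptgs-/- tumors lay below the lowest Ptgs+/+ tumor, and those with and without depletion overlapped. Ptgs-/- minus Ptgs+/+ was -0.46 in untreated hosts, and -0.49 within the code EB046. With depletion it was -0.34, and -0.35 within EB046. The share of all counts taken by the members was 0.244% ± 0.0302 (SD, n = 4) for Ptgs+/+, 0.17% ± 0.00693 (SD, n = 3) for Ptgs-/- and 0.187% ± 0.0248 (SD, n = 3) with depletion. By group means, 28 of 37 members stood in the order Ptgs+/+, depleted Ptgs-/-, Ptgs-/-, and 6 (Pola1, Pole, Rfc2, Gins1, Ccne2 and Mcm7) had the last pair exchanged. Neighbours within the last pair did not differ by test for any member. No share over all genes was computed for these orders, and members share the same tumors, so the counts have no yardstick.

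**Figure D3:**
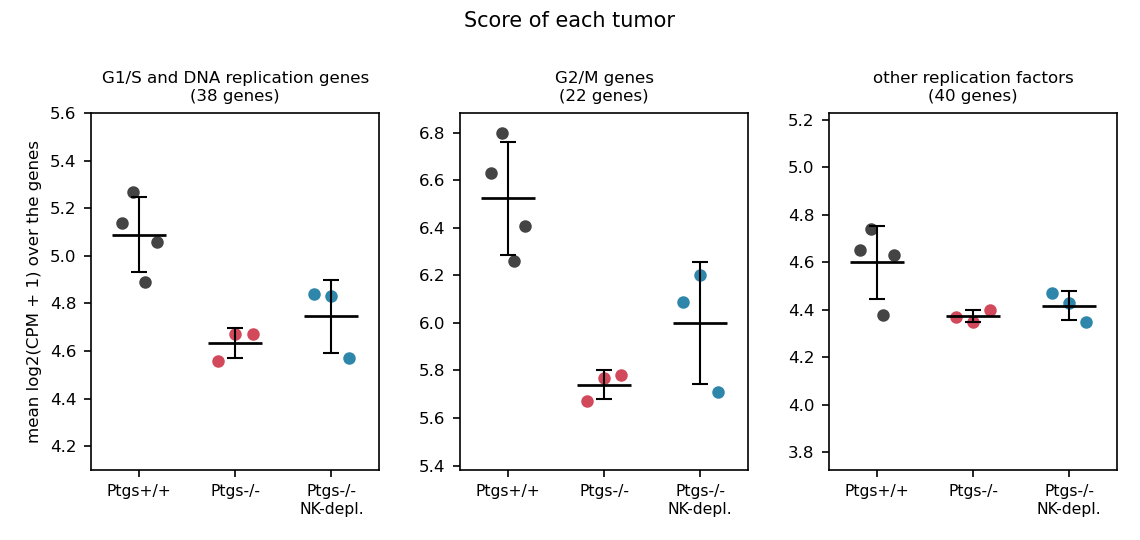
Mean log2(CPM + 1) over the 38 members (left), the 22 G2/M genes (middle) and the 40 other replication factors (right), 1 point per tumor, with the group mean as a bar and the SD as whiskers (n = 4, 3 and 3). Each panel has its own range of the same width, and for the members every Ptgs-/- tumor lies below the lowest Ptgs+/+ tumor, at 4.89.

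Related genes from lists outside the set moved as follows. Over all genes, 11% were called lower in Ptgs-/- against Ptgs+/+ tumors, and 5.87% in depleted hosts against Ptgs+/+. Of 22 G2/M genes, which run mitosis, 21 (95.5%) fell in Ptgs-/- against Ptgs+/+ tumors (median -0.88 on the log2 scale). The largest falls were Ccnb1, cyclin B1 (-1.27), Plk1, a mitotic kinase (-1.26), and Aurka, Aurora kinase A (-1.22). None was called between the kinds of Ptgs-/- tumor (median -0.32, 5 with an unadjusted p under 0.05), and 11 (50%) fell in depleted hosts against Ptgs+/+ (median -0.62). The score of the members minus that of the G2/M genes was -1.53 to -1.35 in Ptgs+/+ tumors, -1.11 to -1.10 in Ptgs-/- tumors and -1.37 to -1.14 with depletion, so in untreated hosts the difference between the lists was smaller in each Ptgs-/- tumor than in any Ptgs+/+ tumor. Of 39 tested other replication factors 12 fell in Ptgs-/- against Ptgs+/+ tumors (30.8%, median -0.30), led by Asf1b, a histone chaperone (-1.09), Dbf4, the activator of the CDC7 kinase (-0.95), and Mcm8 (-0.94), and in depleted hosts 7 fell (17.9%). Pold4, the small subunit of polymerase delta, rose in both (0.47 and 0.43), and was chosen for mention after its values were seen. Of 30 G1/S regulators 7 fell (23.3%, median -0.23), led by Ccna2, cyclin A2 (-1.31), Cks1b (-1.07) and Cdkn2d, an inhibitor of cyclin D kinases (-0.91), and 4 (13.3%) fell in depleted hosts. Ccnd2, cyclin D2, rose in both (0.63 and 0.57) and was likewise chosen after its values were seen.

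Among Ptgs+/+ tumors, replicate 3 had the lowest level of 20 of 37 members (54.1%), against 31.0% of all genes, but the members did not drop evenly. Mcm4 (ENSMUSG00000022673, chromosome 16, 15623897 to 15637400) was at 29.7 CPM there against 85.2 to 97.3 in the other 3, or 32.4% of their mean. Of the 8904 genes with a mean of at least 10 CPM in those 3 tumors, 1.39% were as low or lower. Mcm4 was picked as the lowest of the 37 members by this measure, so that share is no test of it. Orc6 (ENSMUSG00000031697, chromosome 8, 85299632 to 85308278), an origin recognition subunit, was at 21.3 against 53.4 to 55.1 CPM, and Rfc4 at 0.878 against 2.10 to 3.35. Over the members the median was 85.2% of the other 3 tumors, and over those 8904 genes it was 99.8%. Chaf1a, Chaf1b, Ccne2, Slbp and Rpa2 instead had their highest Ptgs+/+ level in this tumor, at 118% to 130% of the others. Without it, 27 members were called lower in Ptgs-/- tumors in place of 21, with no share over all genes given for that fit. The additions were Mcm2 (-0.61), Mcm4 (-0.52), Orc6 (-0.59), Cdt1 (-0.63), Gins2 (-0.92), Rfc4 (-1.27) and Dut (-0.72), and Mcm7 was lost. Mcm4 and Cdc45, which by group means were highest in depleted hosts, then had their highest mean in Ptgs+/+ tumors.

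**Figure D4:**
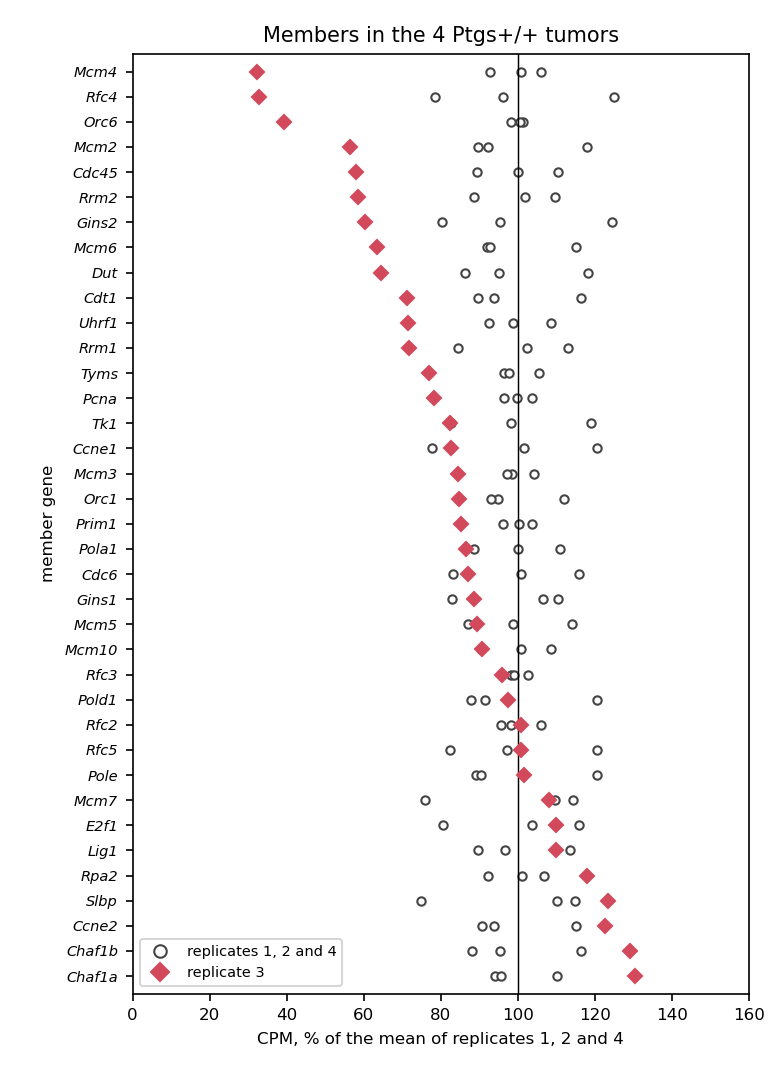
Level of each tested member in the 4 Ptgs+/+ tumors as a percentage of the mean of replicates 1, 2 and 4 (x axis, CPM), with replicate 3 as red diamonds and the other tumors as open circles. Replicate 3 runs from 32.4% for Mcm4 to 130% for Chaf1a.

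Within groups the members otherwise tended to move together. Ptgs+/+ replicate 2 had the highest Ptgs+/+ level of 28 members (75.7%, against 22.5% of all genes), and replicate 3 of the depleted hosts had the lowest of its group for 33 (89.2%, against 32.3%). Over the 10 libraries the deviations from group means had a median Pearson r of 0.43 over the 666 pairs of members, and of 0.48 without Ptgs+/+ replicate 3. These values describe pairs that share libraries and depth, and no value for pairs of other genes was computed. Against the mean deviation of the set, which includes the member itself, Mcm3, Rrm2 and Tk1 were closest, at r = 0.93, 0.92 and 0.92. Slbp ran opposite at r = -0.81, though on 31 to 63 counts a library. Pole, Chaf1a and Ccne2 had values near 0, at -0.11, -0.03 and 0.03. All of these r values are over 10 libraries. The spread was smallest in Ptgs-/- tumors, where the median SD of log2(CPM + 1) over members was 0.14, against 0.22 in Ptgs+/+ tumors and 0.21 with depletion. The Ptgs+/+ value includes replicate 3, and no spread was computed without it or over all genes.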

How the data were processed

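Bulk QuantSeq 3′ RNA libraries of 10 tumors were analysed. The authors removed the first 12 bases of reads, contaminants and trailing polyG and polyA, aligned reads to GRCm38 with STAR, counted them on genes with featureCounts, and deposited raw counts with no normalization or pooling. Use of strand, multi-mapping reads or molecular identifiers is not given in the sources used here. Groups came from the labels. Identifiers were named by GENCODE M21 on the same build (45143 of 45706, 38 of 38 members). The labels give antibody on days 0 and 2 of tumor growth, and the study's methods describe another schedule.

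Counts were tested with edgeR 4.0.16 in R 4.3.3 (TMM, filterByExpr, quasi-likelihood, 14550 genes, 3 groups in 1 model of 10 libraries), at an FDR of 0.05 adjusted by Benjamini-Hochberg. SE is the log2 fold change over the square root of F, and intervals use the t quantile of the fit. The study's rule adds a log2 fold change of at least 1.5. No set test was run. CPM use library totals, and the score uses a pseudocount of 1. On data simulated for Ptgs-/- against Ptgs+/+ (14330 genes run), 39 of 100 genes changed by 0.75 (log2) and 80 of 100 changed by 1.5 were called, with 10 unchanged genes called. The chi-square between replicates was 7.41 to 30.1 per degree of freedom, above sampling noise in every pair. Alternatives were DESeq2 1.42.0, library size alone, other filters, a likelihood ratio test, the label code as a term or within EB046, a fit of 2 groups at a time, a block for the number in the labels, muscle genes left out, other pseudocounts and each library left out. All members could be named. Values in every tumor are given for the 4 largest falls of each comparison, or the 4 smallest p where none was called, and from each pathway list the 3 called genes with the largest change. Members, lists, roles and markers were chosen with earlier results of these data known. Promoter sequences are from RefSeq (GRCm38.p6). Sorted cells were not analysed here. The level of 1 marker gene is not reported here.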

Additional observations from a re-analysis of the deposited data

Results flagged for a closer look

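In the group of 4 Ptgs+/+ tumors the highest or lowest value was set against the rest of the group with Dixon's ratio (gap over range) and its 95% critical value for the 37 tested members and the score. Of the 38 sets of values 2 had a tumor far from the others, and chance alone gives about 1 in 20. Orc6 was at 21.3 CPM in Ptgs+/+ replicate 3, against 53.4 to 55.1 in the other tumors (ratio 0.95). Mcm7 was at 69.9 CPM in Ptgs+/+ replicate 4, against 99.6 to 106 (ratio 0.834). Replicate 4 carries the code EB042, and without it the log2 fold change of Mcm7 in Ptgs-/- against Ptgs+/+ tumors was -0.59, against -0.46 with it. Groups of 3 tumors are too small for this rule.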

How the results depend on the processing

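The members were counted again under each alternative. Called members between Ptgs-/- and Ptgs+/+ tumors numbered 15 to 24 over the other models, filters and scalings, against 21, and 11 of the 21 were called under every one of them and without any 1 library. Between the kinds of Ptgs-/- tumor the count was 0 in every fit. Between Ptgs-/- tumors of NK cell-depleted hosts and Ptgs+/+ tumors it was 9 to 14, against 11. Leaving out 1 library gave 0 to 12, against 14 to 27 between Ptgs-/- and Ptgs+/+ tumors, and the cause was not tested. Shares over all genes are not given for these alternatives. The study's rule gave 0 called members for Ptgs-/- against Ptgs+/+ tumors and 0 for depleted hosts against Ptgs+/+, since no member reached its fold. Median fold changes and score differences kept their direction, and score differences moved by less than the pooled SD of the score, 0.13. Of 2217 values of single members, 95 lost and 30 gained a call, and no called member changed direction. Whether the label numbers pair the tumors is not known. Deviations of same-numbered tumors correlated at -0.244 to 0.355 (11 pairs) and those of others at -0.426 to 0.166 (22 pairs). These ranges overlap, but the groups are small and some same-numbered pairs differ in code, so the check cannot exclude pairing. With the replicate number as a block, 20, 0 and 10 members were called in the 3 comparisons. Depth limits Rfc4, Gins2 and Chaf1a, at 8 to 48 counts a library.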
